A study of Arabidopsis thaliana with 21 samples.

Results

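The transcripts described here are 113 ATH1 probe sets whose level in the Arabidopsis hypocotyl was at least 3 log2 units lower after removal of the shoot tip, at least 3 log2 units lower under an inhibitor of auxin transport, and within 1 log2 unit of the intact plant when auxin was put back on the cut stem. A step of 1 in these log2 values is a doubling of the array signal, and a probe set is the group of array probes that reads 1 transcript or a few close ones. The rule was applied to the group means of 22746 probe sets, after 64 control probe sets had been set aside. It was met by 121, of which 8 (TBL34, TBL45, EXPA15, GH9B13, SBTI1.1, AUR2, CLE26 and AT1G72250) were left out by name as the rule lists their names or families for removal. The remaining 113 members comprise 55 probe sets that name 1 gene, 1 that names several and 57 that name none in the probe annotation used here. The 4 treatments of the wild type chose the members, so their levels in those treatments are given as a description, with no test.

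Auxin (indole-3-acetic acid, IAA) is made mainly in young shoot tissue and moves down the stem from cell to cell through polar export. Removal of the tip takes away the source, and N-1-naphthylphthalamic acid (NPA) blocks the transport. In the nucleus auxin brings about the breakdown of Aux/IAA repressors and so frees auxin response factors to act on their target genes, and in stems it is known to sustain vascular cambium activity, xylem formation and cell expansion. Strigolactones are hormones that limit shoot branching; in Arabidopsis MAX1 and MAX3 act in their synthesis and MAX2 in the response to them and to karrikins.

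Hypocotyls, the stem between root and seed leaves, were taken from 2-week-old soil-grown plants 24 h after treatment, on 21 arrays in 7 groups of 3, each array holding RNA of 120 to 150 pooled hypocotyls. All 7 groups received lanolin with less than 10% ethanol. The 4 wild-type groups (Col-0) were intact plants with plain lanolin, decapitated plants with plain lanolin, decapitated plants with 3 mg per mL IAA in the lanolin, and plants with 3 mg per mL NPA in the lanolin and no decapitation in their label. The other 3 groups were max1, max2 and max3 mutants with plain lanolin, whose alleles and parent strain the labels do not give. Samples are bulk tissue, so fewer cells of a type and less RNA per cell cannot be told apart.

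Array medians ran from 6.11 to 6.35 and no 2 arrays were identical. A level under 3.5 is treated here as near background, and 29.9% of the probe sets were under it in all 21 arrays. Few of the marker genes listed for other tissues were measured by a probe set naming them alone. The leaf genes LHCB4.2 and RCA (2 of 8 listed) were detected in every group, with a summed level of 24.6 to 24.8 in intact and 24.6 to 26.2 in decapitated arrays. The shoot apex genes CLV3 and YUC4 (2 of 4) and the root hair gene EXPA7 (1 of 4) were near background throughout, and none of 6 epidermis genes was measured. Vascular markers were lower with the members. The cambium and xylem genes MOL1 and GUT2 (2 of 10) were both lower after decapitation and under NPA by limma, where 13.4% and 13.9% of all probe sets were lower. Their summed level was 18.5 to 19.2 in intact, 14.6 to 15.8 in decapitated, 14.98 to 15.2 in NPA and 16.9 to 18.0 in IAA arrays. The 3 of 5 phloem genes measured, OPS, CLE41 and CLE44, were all lower as well, with sums of 28.8 to 29.3 in intact, 24.3 to 24.7 in decapitated, 24.2 to 25.4 in NPA and 27.8 to 28.9 in IAA arrays. With IAA the levels of OPS and CLE44 were 7.50 and 10.47, against 7.64 and 9.83 in intact plants, while CLE41 did not return, at 11.57 in intact, 10.78 in decapitated and 10.49 in IAA plants. The part of these tissues in the members' levels was not tested.

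The 113 members had intact means from 5.69 to 13.53 with a median of 8.70. After decapitation the median member mean was 4.29, under NPA 4.19, and after decapitation with IAA 8.39. The difference between intact and decapitated plants ran from 3.00 to 7.60 with a median of 4.00, a fold of 8.02 to 193 with a median of 15.9. Under NPA the difference ran from 3.02 to 7.54 with a median of 4.05. Averaged over the members, the 3 intact arrays stood at 8.94, 8.84 and 8.92, the decapitated arrays at 4.73, 4.58 and 4.66, the NPA arrays at 4.72, 4.60 and 4.31, and the IAA arrays at 8.84, 8.44 and 8.55. In each of the 113 members every decapitated and NPA array lay below every intact and IAA array, a pattern met by 8.18% of all probe sets and one that the rule largely imposes. Background limited many of these differences from below. In decapitated plants 27 members were under 3.5 in every array, under NPA 26, and in both 19, whereas in intact, IAA, max1 and max3 plants all 113 were at or above 3.5 in every array and in max2 plants 112.

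**Figure D1:**
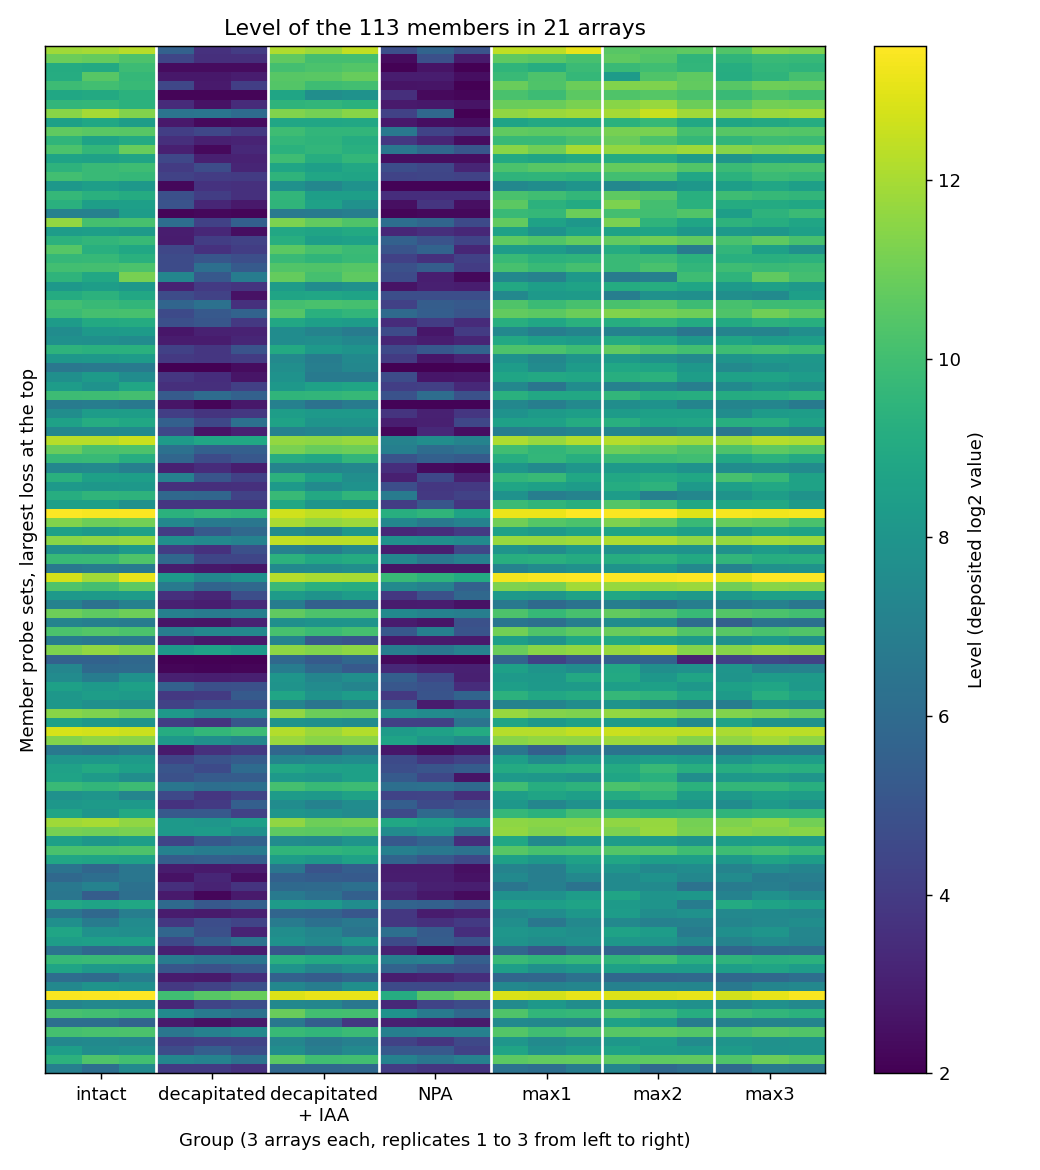
Deposited log2 level of each of the 113 members (rows, largest loss at the top) in each of the 21 arrays (columns, 3 per group). The decapitated and NPA columns are dark, with member means around 4.29 and 4.19 at the median, and the other 5 groups are bright, with medians from 8.39 to 8.98.

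The spread between the 3 arrays of a group was larger in the groups with low levels. The median SD of a member was 0.230 in intact and 0.283 in IAA plants, against 0.408 in decapitated and 0.446 in NPA plants. To read the rule in arrays that it had not used, members were chosen again from 2 replicate numbers and the remaining number was inspected. This gave 88, 135 and 130 probe sets without numbers 1, 2 and 3. In the number left out, 59, 64 and 54 of them met the whole rule again. The median difference between intact and decapitated plants in that number was 3.93, 4.06 and 4.01, and the smallest was 2.09, 1.77 and 1.30. Between intact and NPA plants the medians were 3.90, 4.04 and 4.11, with smallest values of 1.89, 0.90 and 1.24.

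Full restoration is the rule's own condition, a group mean with IAA within 1 log2 unit of intact, and not a finding. IAA restored from 67.1% to 121% of the log2 difference lost to decapitation, with a median of 90.1%. The mean with IAA was below the intact mean in 80 members and above it in 33. It lay within 0.5 in 52 members, between 0.5 and 1 below in 48, and between 0.5 and 1 above in 13. Every IAA array was below every intact array in 46 members, against 12.8% of all probe sets, and above in 12, against 9.49%. Nothing is read from those counts, since the rule capped the difference.

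Members were grouped by the protein family that general knowledge of these Arabidopsis loci assigns, because the annotation used here gives most of them as locus codes without a product name. A family is given for 25 of the 55 one-gene members.

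Enzymes and proteins of the cell wall and cell surface are described first. AT4G13710 and AT1G04680 belong to the pectate lyases, which cut the pectin backbone, and AT1G70500 to the polygalacturonases, which hydrolyse it. AT4G13710 measured 7.76, 7.74 and 7.53 in intact, 2.90, 2.86 and 3.22 in decapitated, 7.60, 7.69 and 7.30 in IAA, and 3.21, 2.91 and 3.21 in NPA arrays. AT1G04680 measured 13.59, 13.39 and 13.44 in intact, 9.34, 9.62 and 9.47 in decapitated, 12.65, 12.40 and 12.57 in IAA, and 9.22, 9.51 and 8.63 in NPA arrays. Both were low in all 6 decapitated and NPA arrays, the first near background and the second far above it, and the IAA arrays of AT1G04680 stayed below all intact arrays by 0.93 on average. AT1G70500 measured 7.53, 6.84 and 7.82 in intact, 3.00, 2.98 and 3.00 in decapitated, 7.98, 7.24 and 7.68 in IAA, and 5.49, 4.54 and 3.00 in NPA arrays. Its decapitated arrays were at background while its NPA arrays spread over more than 2 log2 units, with 1 of them at the decapitated level. Of 4 other measured genes with pectin enzyme names, fixed as a list, PME61 alone was called lower after decapitation and under NPA (limma, adjusted p = 0.0269 and 0.0132), and the other 3 were not called.

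The other 5 surface proteins had intact minus decapitated differences of 3.02 to 3.74. ATLP-1, a thaumatin-like protein, measured 12.27, 12.25 and 12.56 in intact, 8.29, 8.81 and 8.87 in decapitated, 11.62, 11.53 and 11.75 in IAA, and 7.15, 7.65 and 7.16 in NPA arrays. Its NPA arrays were all below its decapitated arrays, and its IAA arrays all below its intact arrays. AT3G06035, predicted to carry a GPI membrane anchor, averaged 11.83, 8.23, 11.20 and 8.52 in intact, decapitated, IAA and NPA plants. AT1G72230, of the copper-binding cupredoxins, averaged 11.48, 7.74, 11.57 and 8.07 in the same order. AT4G29360, of a glycoside hydrolase family that acts on beta-glucans, averaged 8.48, 5.46, 7.78 and 4.99, and AT4G29240, a leucine-rich repeat protein, averaged 7.67, 4.34, 7.29 and 4.57. With IAA, 4 of the 5 means were below the intact mean.

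Secreted hydrolases included the second-largest loss among one-gene members. AT1G54020, of the GDSL esterases and lipases, measured 9.12, 10.51 and 9.67 in intact, 2.74, 2.73 and 2.92 in decapitated, 10.53, 10.54 and 10.82 in IAA, and 2.91, 2.92 and 2.42 in NPA arrays. All 6 low arrays were near background, so that the folds of 125 and 129 against intact plants are limited by it, and all 3 IAA arrays exceeded the highest intact array. AT1G25510, of the aspartyl proteases, measured 8.11, 8.38 and 8.12 in intact, 3.10, 3.94 and 3.71 in decapitated, 8.29, 7.58 and 7.80 in IAA, and 2.60, 3.02 and 2.93 in NPA arrays. The NPA arrays of AT1G25510 were all below its decapitated arrays. AT1G10750 and AT1G23340, which share the DUF239 domain, had intact means of 7.23 and 7.68, decapitated means of 3.14 and 4.23, IAA means of 7.21 and 8.39, and NPA means of 2.67 and 4.08.

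AT3G25290 and AT2G04850 encode membrane proteins with DOMON and cytochrome b561 domains and carry the family description auxin-responsive. AT3G25290 measured 10.71, 10.56 and 10.49 in intact, 4.13, 4.46 and 3.89 in decapitated, 9.93, 9.58 and 9.57 in IAA, and 6.62, 4.33 and 3.89 in NPA arrays. AT2G04850 measured 9.65, 9.30 and 9.06 in intact, 4.83, 4.07 and 3.57 in decapitated, 9.58, 8.47 and 8.43 in IAA, and 3.52, 3.52 and 3.52 in NPA arrays. The first NPA array of AT3G25290 stood more than 2 log2 units above the others, and its IAA arrays did not reach the intact ones. For AT2G04850 the first IAA array lay among the intact arrays and the other two below them.

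**Figure D2:**
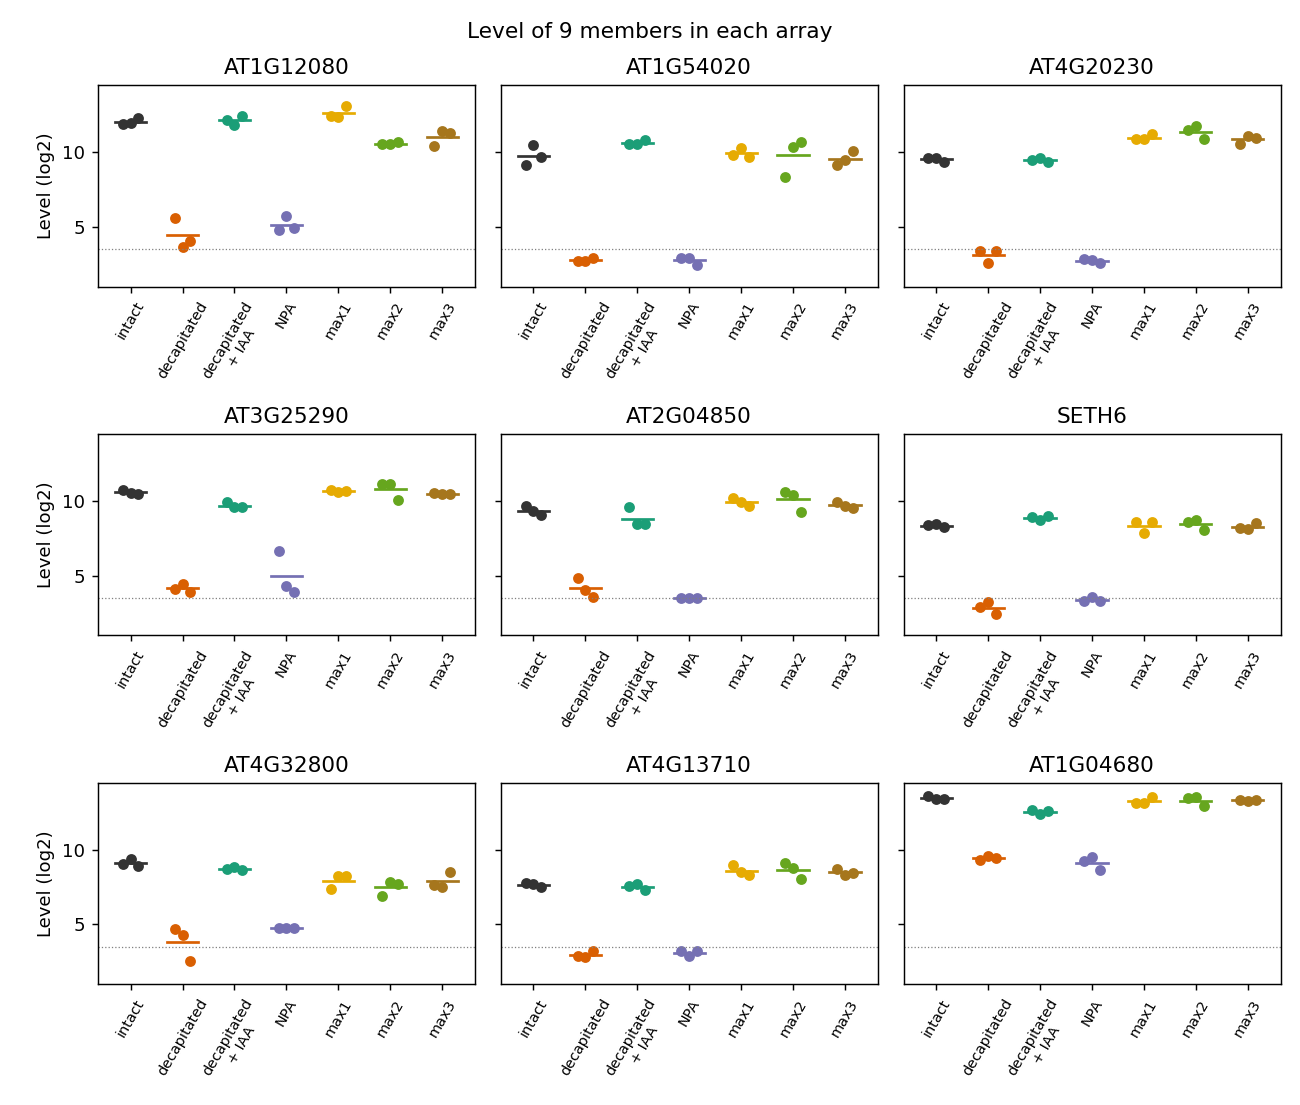
Deposited log2 level (vertical axis) of 9 members in each array (points, in the order of replicates 1 to 3) by group, with group means as bars and a dotted line at 3.5, the level treated as near background. AT4G20230 shows mutant arrays from 10.55 to 11.72, all above its intact arrays at 9.34 to 9.61, and AT1G12080 shows max2 arrays at 10.52 to 10.65 below its intact arrays at 11.86 to 12.27.

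The protein kinase AT1G24030 was the signalling protein described here. AT1G24030 measured 6.83, 6.58 and 6.66 in intact, 3.15, 2.74 and 2.82 in decapitated, 7.13, 5.23 and 4.97 in IAA, and 2.79, 2.85 and 2.82 in NPA arrays. Its IAA mean was 0.91 below intact, close to the limit of the rule, with the first IAA array above all intact arrays and the other two below.

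Proteins of cell division were the kinesin AT3G10310, a motor protein of microtubules, AT5G15510 of the TPX2 family of spindle proteins, and the GRAS transcription factor AT1G63100 (SCL28), known as a regulator of the G2 to M transition. Their intact minus decapitated differences were 3.14, 3.05 and 3.02, at the low end of the members, and their IAA means were 0.82, 0.81 and 0.65 below intact. AT1G63100 measured 8.44, 7.65 and 7.83 in intact, 4.66, 5.46 and 4.73 in decapitated, 7.64, 6.91 and 7.42 in IAA, and 5.22, 5.23 and 4.24 in NPA arrays. The IAA arrays of AT1G63100 were all below its intact arrays. Of other kinesins, KINESIN-13A and KINESIN-12B were the 2 measured genes with that name, and both were called lower after decapitation by smaller steps, from 9.64 to 8.82 (limma, adjusted p = 5.88e-05) and from 7.07 to 4.97 (adjusted p = 9.05e-05).

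Other transcription factors were AT4G32800 and tny (TINY) of the AP2/ERF family and AT1G47655 of the Dof family. AT4G32800 measured 9.08, 9.39 and 8.89 in intact, 4.69, 4.28 and 2.55 in decapitated, 8.71, 8.82 and 8.66 in IAA, and 4.78, 4.77 and 4.78 in NPA arrays. The third decapitated array was the lowest, near background. The tny transcript measured 8.91, 8.67 and 8.83 in intact, 5.93, 5.18 and 5.50 in decapitated, 8.32, 8.23 and 7.59 in IAA, and 5.66, 5.51 and 5.05 in NPA arrays. AT1G47655 averaged 6.67, 3.47, 6.05 and 3.13 in the same order. In these genes all 3 IAA means were below intact, by 0.39, 0.76 and 0.62.

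Among metabolic enzymes, AT4G20230 of the terpene synthase family had the largest loss. It measured 9.57, 9.61 and 9.34 in intact, 3.40, 2.57 and 3.40 in decapitated, 9.49, 9.59 and 9.33 in IAA, and 2.82, 2.75 and 2.61 in NPA arrays. Its IAA arrays overlapped its intact arrays, and every decapitated and NPA array was near background. AT5G07800, a flavin-containing monooxygenase, averaged 8.26, 3.83, 8.24 and 4.32 in intact, decapitated, IAA and NPA plants. GSTU23, a glutathione transferase, averaged 6.84, 3.14, 5.97 and 2.79. AT4G20320, a CTP synthase of pyrimidine nucleotide synthesis, averaged 8.21, 4.29, 7.76 and 4.92, and 1 of its NPA arrays at 6.43 stood far above the other two at 4.17 and 4.16.

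Genes without an assigned family held the largest loss of all. AT1G12080 measured 11.86, 11.93 and 12.27 in intact, 5.57, 3.66 and 4.05 in decapitated, 12.15, 11.83 and 12.43 in IAA, and 4.77, 5.71 and 4.93 in NPA arrays. The fold of intact over decapitated plants was 193, and the IAA arrays overlapped the intact ones. SETH6 measured 8.37, 8.44 and 8.26 in intact, 2.90, 3.26 and 2.44 in decapitated, 8.92, 8.74 and 8.99 in IAA, and 3.29, 3.56 and 3.28 in NPA arrays. Here every IAA array exceeded every intact array. AT2G28410 measured 10.01, 9.78 and 9.65 in intact, 4.28, 4.04 and 4.00 in decapitated, 9.48, 8.80 and 8.71 in IAA, and 4.33, 4.39 and 4.25 in NPA arrays. AT3G48970 measured 8.15, 8.42 and 8.12 in intact, 2.24, 3.69 and 3.58 in decapitated, 7.81, 7.34 and 7.86 in IAA, and 2.13, 2.13 and 2.12 in NPA arrays. In both, all IAA arrays were below all intact arrays, and AT3G48970 was at background in every NPA array.

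AT3G52900 measured 9.84, 10.09 and 10.17 in intact, 4.59, 5.22 and 5.66 in decapitated, 10.41, 9.31 and 9.56 in IAA, and 5.998, 5.43 and 5.04 in NPA arrays. AT3G25130 measured 8.33, 9.01 and 9.10 in intact, 4.82, 5.06 and 3.91 in decapitated, 8.89, 8.48 and 8.37 in IAA, and 3.46, 4.04 and 3.43 in NPA arrays. IAA and intact arrays overlapped in both. AT1G69080 measured 7.58, 8.16 and 8.33 in intact, 2.68, 3.04 and 3.10 in decapitated, 7.58, 7.12 and 6.78 in IAA, and 4.63, 2.69 and 4.00 in NPA arrays. AT5G45700 measured 8.09, 8.15 and 8.30 in intact, 3.92, 3.82 and 4.01 in decapitated, 7.42, 6.83 and 7.47 in IAA, and 3.99, 2.69 and 3.17 in NPA arrays. For AT5G45700 all IAA arrays were below all intact arrays, and NPA arrays of both genes spread by more than 1 log2 unit.

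Of the 20 largest losses 7 belonged to one-gene members, which were 55 of the 113 members. Over the whole array 13513 of 22746 probe sets name 1 gene. The rule's removal by name can act only on named probe sets, so no contrast between named and unnamed members is read. The 58 members that name several genes or none had a median intact minus decapitated difference of 4.25, against 3.70 for the 55 that name 1. The largest losses among them, by the mean of both treatments, were 261825_at, with means of 10.67, 3.84, 10.27 and 3.33 in intact, decapitated, IAA and NPA plants, 251178_at, with 9.32, 2.38, 10.25 and 2.18, and 260034_at, with 9.87, 3.80, 10.12 and 2.33. The one-gene members lay on all 5 chromosomes, 17 of 55 on chromosome 1, 5 on 2, 12 on 3, 11 on 4 and 10 on 5. Among all probe sets that name 1 gene, 25.8%, 16.5%, 20.5%, 14.7% and 22.5% lay on chromosomes 1 to 5.

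The NPA mean was within 1 log2 unit of the decapitated mean in 95 of 113 members, against 97.4% of all probe sets, and nothing is read from that count, since the rule asked for low levels in both. Every NPA array lay below every decapitated array in 17 members, against 7.08% of all probe sets, and above in 8, against 7.74%. The widest differences towards a lower level under NPA were those of 266965_at at -3.13 and 264025_at at -2.29, followed by AT4G34560 at -1.95. AT4G34560 measured 5.53, 4.50 and 6.25 in decapitated and 2.96, 3.02 and 4.46 in NPA arrays, which did not overlap. Towards a higher level the widest were 267094_at at 2.95, 265923_at at 2.05 and 262796_at at 1.63, and for one-gene members AT1G70500 at 1.35. The 267094_at arrays read 3.01, 2.31 and 3.31 after decapitation and 6.58, 5.82 and 5.08 under NPA, with no overlap.

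**Figure D3:**
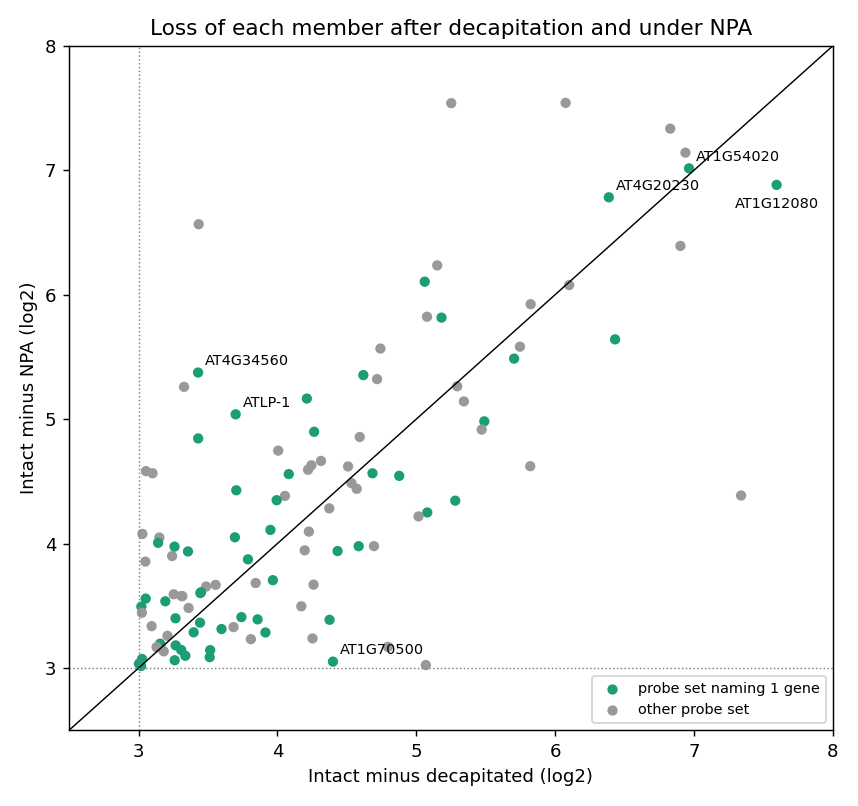
Intact minus decapitated level (horizontal) against intact minus NPA level (vertical), in log2 units, for the 113 members, with the rule's limits of 3 as dotted lines and equality as the solid line. Most members lie near the line, and AT4G34560 and ATLP-1 lie above it (lower under NPA) while AT1G70500 lies below it.

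Values just inside and just outside the limits of the rule lay close together. Just inside the limit for decapitation were AT4G09890 at 3.00 and AT3G22070 at 3.02, and just outside 249080_at at 2.99 and 266891_at at 2.94. For NPA the nearest inside were AT3G22070 and 265923_at, both at 3.02, and outside AT5G42860 at 2.94 and AT5G03390 at 2.93. For IAA, AT4G35320 at 0.996 and 247638_at at 0.995 below intact were inside, while AT3G28420 at 1.002 above and AT5G50130 at 1.02 above were outside. Of 204 probe sets that lost at least 3 in both treatments and were not left out by name, 78 had IAA means more than 1 below intact and 13 more than 1 above. AT4G35320 was also uneven between arrays, with 8.78, 7.83 and 7.68 in intact and 5.79, 4.81 and 3.15 in decapitated plants.

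The members moved together across the arrays, as the rule requires, with a median pairwise Pearson r of 0.936 over 21 arrays. Within the 9 mutant arrays, which the rule did not use, the median r was 0.311. The same value was not computed over other probe sets, and arrays sharing a replicate number had correlated residuals (median 0.361). No link between members is therefore read from it. The probe sets outside the rule most like the members' mean profile over 21 arrays were AT1G23790 (r = 0.989), 246425_at (0.988), 249070_at (0.987), AT5G26670 (0.987) and AT1G79620 (0.986). AT1G23790 averaged 5.71 in intact and 3.49 in decapitated plants and AT5G26670 averaged 9.39 and 6.91, losses too small for the rule. The other 3 had IAA means more than 1 below intact, as in AT1G79620 at 9.20 in intact and 8.18 in IAA plants.

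No listed auxin response or transport gene was a member, but the rule fixed part of this in advance. It leaves out every symbol starting with IAA, so genes so named, such as IAA30, could not be members. Of 44 listed, 11 were measured by a probe set of their own, and the others could not be counted as members. After decapitation 5 of the 11 were called lower (13.4% of all probe sets) and 0 higher, and under NPA 4 were lower (13.9%) and 0 higher. With IAA on the decapitated stem 9 of 11 were called higher than in intact plants (limma, adjusted p below 0.05, 3.89% of all probe sets) and none lower, with a median difference of 3.51 against -0.02 over all probe sets. HAT2, a homeobox gene used as a marker of auxin response, averaged 9.24 in intact, 4.58 in decapitated, 11.79 in IAA and 2.23 in NPA plants. IAA30, an Aux/IAA gene, averaged 6.66, 3.15, 8.95 and 2.90 in the same order. Both lost at least 3 in both treatments, as the members did, and with IAA both rose above the intact level by more than 2 log2 units (adjusted p = 0.000238 and 1.01e-05), outside the range allowed to members. The lateral root regulator LBD16 averaged 1.99 in intact, 2.02 in decapitated and 2.02 in NPA plants, near background, and 7.79 with IAA.

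The max mutants did not enter the choice of members, but the intact arrays they are compared with did. Every array of max1 and of max2 lay above every decapitated and NPA array in 112 of 113 members, and every max3 array in 113, against 13.4%, 12.8% and 13.0% of all probe sets. The rule chose the decapitated and NPA levels to be low, so nothing is read from those counts. Means were within 1 log2 unit of intact in 90 members in max1, 78 in max2 and 98 in max3. They were at least 1 above intact in 17, 27 and 10 members and at least 1 below in 6, 8 and 5.

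By limma with Benjamini-Hochberg adjustment over all 22746 probe sets, 8 members were higher in max1 than in intact plants, 14 in max2 and 4 in max3. Among all probe sets 1.92%, 1.65% and 0.998% were called higher in those comparisons, and the members' shares were 7.08%, 12.4% and 3.54%. All probe sets include the 29.9% under 3.5 in every array. Of the 14 members called in at least 1 mutant, 10 were among the 19 under 3.5 in every decapitated and NPA array. The called members had a median intact mean of 6.71, against 8.80 for the other members. In this main fit, which leaves the replicate number out, no member was called lower (1.82%, 1.47% and 1.02% of all probe sets). At an unadjusted p below 0.05, 9, 11 and 9 members were lower, against 28, 38 and 22 higher. The median member difference was 0.06 in max1, 0.21 in max2 and 0.10 in max3, against -0.03, -0.02 and -0.03 over all probe sets. All 9 mutant arrays lay above all 3 intact arrays in 29 members (2.66% of all probe sets) and below them in 6 (3.3%). Since intact arrays had to be high to enter the rule, these comparisons are not independent of it.

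The count of higher members depended on the fit and on single arrays. With the replicate number as a block it was 11, 19 and 7, with 2, 2 and 1 members lower, and in fits of only the groups compared it was 2, 2 and 0. Members lower with the block were 257504_at and AT2G40480 in max1, tny and AT4G09160 in max2 and AT2G40480 in max3, a naming made after their values were seen. In max1 the count was 5 without intact replicate 1, 4 without intact replicate 2 and 5 without max1 replicate 3. In max2 it was 8 without intact replicate 2, 7 without max2 replicate 1 and 7 without max2 replicate 2. In max3 it was 1 without intact replicate 1, 1 without intact replicate 2, 2 without intact replicate 3, 1 without max3 replicate 2 and 1 without max3 replicate 3. The cambium and xylem marker GUT2, a xylan synthesis gene, was higher in all 3 mutants by 1.11, 1.26 and 0.98, and the phloem gene CLE41 lower by 0.96, 1.01 and 1.00. MOL1, the other cambium and xylem marker, differed by -0.42, -0.36 and -0.35 and was not called. The summed level of the 2 cambium and xylem markers was 18.5 to 19.2 in intact and 19.0 to 20.0, 19.5 to 20.0 and 19.5 to 19.7 in max1, max2 and max3 arrays, and that of the 3 phloem markers 28.8 to 29.3 against 27.0 to 27.8, 27.0 to 28.0 and 27.2 to 27.5. Their part in the members' differences was not tested.

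The terpene synthase family gene AT4G20230 was called in all 3 mutants. Its arrays read 10.89, 10.85 and 11.18 in max1, 11.47, 11.72 and 10.90 in max2, and 10.55, 11.07 and 10.96 in max3, all above the highest intact array at 9.61. The differences were 1.47 ± 0.22 (SE, adjusted p = 0.00144), 1.85 ± 0.22 (0.000267) and 1.35 ± 0.22 (0.00602). All 3 mutants also had 2 unnamed members called higher. For 266783_at the differences were 2.65 ± 0.38, 2.68 ± 0.38 and 1.76 ± 0.38 (limma, adjusted p = 0.000948, 0.00098 and 0.0283), and for 261345_at 1.44 ± 0.24, 1.90 ± 0.24 and 1.09 ± 0.24 (0.00278, 0.000344 and 0.0309).

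In max1 and max2 the calls included AT5G19870, AT5G06930, the kinase AT1G24030 and the pectate lyase AT4G13710. AT5G19870 read 6.52, 5.37 and 6.21 in intact, 7.84, 7.81 and 8.35 in max1, 8.72, 7.95 and 8.10 in max2, and 7.09, 7.82 and 7.38 in max3 arrays, with no overlap between intact and mutant arrays. Its differences were 1.96 ± 0.36 in max1 and 2.22 ± 0.36 in max2 (limma, adjusted p = 0.00556 and 0.00246), and 1.40 ± 0.36 in max3, which missed the threshold (0.0589) but passed it with the replicate number as a block (0.0371). AT5G06930 read 5.89, 6.15 and 6.49 in intact, 7.46, 6.93 and 7.38 in max1, 7.49, 7.86 and 7.31 in max2, and 7.54, 6.85 and 6.94 in max3 arrays. It differed by 1.08 ± 0.24 and 1.38 ± 0.24 in max1 and max2 (adjusted p = 0.0188 and 0.00424).

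AT1G24030 read 8.43, 7.91 and 8.83 in max1, 8.97, 8.58 and 8.28 in max2 and 7.77, 8.18 and 7.75 in max3 arrays, all above its intact arrays. It differed by 1.70 ± 0.40 and 1.92 ± 0.40 in max1 and max2 (limma, adjusted p = 0.0287 and 0.0160). AT4G13710 read 8.95, 8.49 and 8.32 in max1, 9.09, 8.79 and 8.07 in max2 and 8.74, 8.34 and 8.43 in max3 arrays, and differed by 0.91 ± 0.22 and 0.97 ± 0.22 (adjusted p = 0.0315 and 0.0247), and with the block it was called in max3 as well, by 0.83 ± 0.20 (adjusted p = 0.0338).

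AT3G56810 was called in max2 and max3, with 6.61, 6.83 and 6.72 in intact, 7.92, 8.12 and 7.37 in max2 and 7.10, 7.80 and 7.92 in max3 arrays. The differences were 1.08 ± 0.21 and 0.89 ± 0.21 (limma, adjusted p = 0.0109 and 0.0474). In the main fit the DUF239 gene AT1G23340 passed the threshold in max2 and not in max1 or max3 (1.30 ± 0.29, limma, adjusted p = 0.0207). So did 4 unnamed members, 257233_at, 267094_at, 266488_at and 248121_at, by 1.26 to 1.73. With the block 266488_at was also called in max1 and max3 (adjusted p = 0.00219 and 0.0443) and 267094_at in max1 (0.0476). Array weights called 257233_at, 267094_at and 248121_at in max1 and max3, and 266488_at in max1 (adjusted p from 0.00247 to 0.0278). When dim probe sets were left out, 267094_at, 266488_at and 248121_at were called in max1 (0.0299 to 0.041). None of these 5 was called between max2 and the mean of max1 and max3. All 8 members called in max1 and all 4 called in max3 were also called in max2, 3 comparisons that share the intact arrays. Of the 14 members called in at least 1 mutant, 13 had every mutant array above every intact array.

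**Figure D4:**
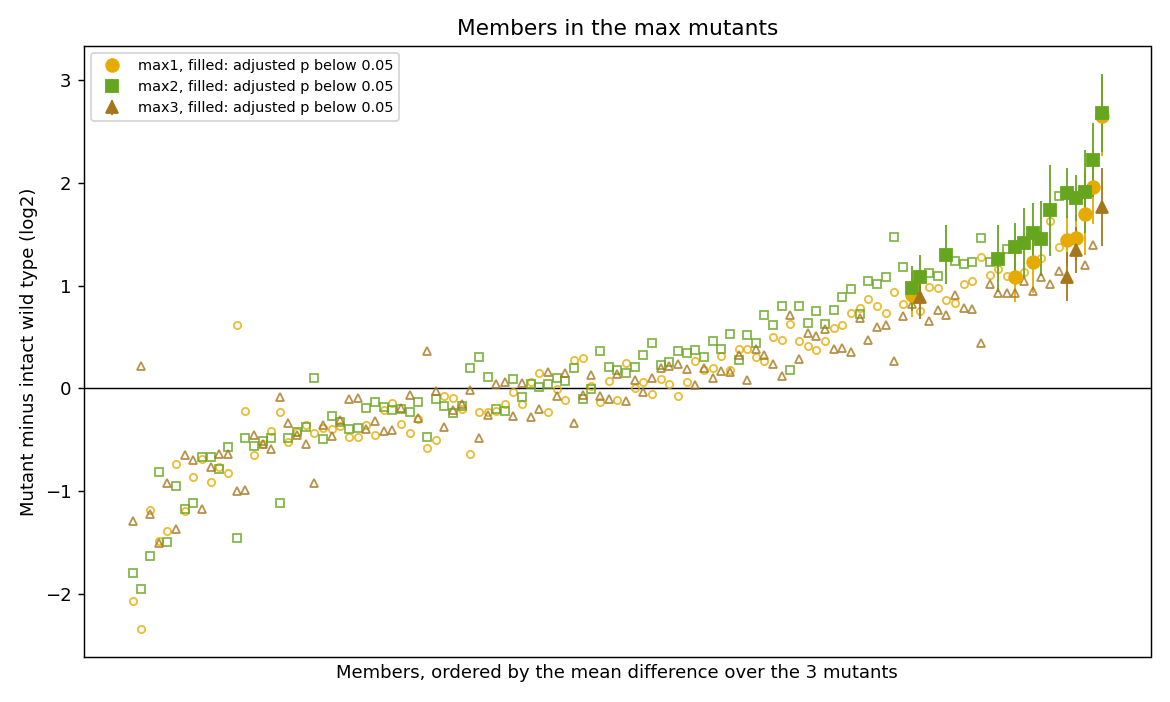
Difference of each mutant from intact wild type in log2 units (vertical, bars are the SE from limma and are drawn for called values) for the 113 members ordered by their mean difference over the 3 mutants (horizontal). Filled symbols, adjusted p below 0.05, are 8 in max1, 14 in max2 and 4 in max3 and all lie above 0.

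Other members had lower means in the mutants, and none of them was called in the main fit. The mean of each mutant was below intact in 35 of 113 members, 31.0% against 52.9% of all probe sets. The share over all probe sets includes those near background, such as CLV3, with differences of -0.025, -0.01 and -0.02. The shares are therefore not like for like, and nothing is read from the contrast. The 35 members included 4 of the 5 other surface proteins, such as AT4G29360 with differences of -0.69, -0.67 and -1.18 (limma, adjusted p from 0.0854 upward). In fits of only the groups compared AT4G29360 was called lower in max1 and max3 (limma, adjusted p = 0.049 and 0.036), and with array weights in max3 (0.0157). The AP2/ERF gene AT4G32800 read 7.35, 8.22 and 8.25 in max1, 6.90, 7.84 and 7.72 in max2 and 7.67, 7.52 and 8.51 in max3 arrays, all below its lowest intact array at 8.89. Its differences were -1.18 ± 0.44, -1.63 ± 0.44 and -1.22 ± 0.44 and missed the threshold (limma, adjusted p = 0.180, 0.0584 and 0.196). AT4G32800 was called lower in all 3 mutants with array weights (adjusted p = 0.0105, 0.017 and 0.0316), and in max2 also with dim probe sets left out, with medians subtracted and with a trend and robust estimation (0.0301, 0.0431 and 0.0489). The 3 cell division genes had mutant means within 0.43 of intact and none was called. AT1G54020, with its large loss, stayed within 0.20 of intact in the mean of each mutant.

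The mutants were also compared with each other. These differences come from arrays that the rule did not use, but the spread was estimated over all 21 arrays, the wild-type ones included. No member was called in max2 against the mean of max1 and max3 (limma, 0.171% of all probe sets called, 9 members at an unadjusted p below 0.05), and none in max1 against max3 (0.361% of all, 6 members unadjusted). Fits of only the groups compared, which leave out the wild-type arrays, called none either. In the first comparison 89 of 113 members lay above 0, 78.8% against 63.1% of all probe sets, with a median of 0.17 against 0.01. Probe sets near background enter the 63.1% with very small differences, such as CLV3 at 0.012 and EXPA7 at 0.007. The shares are therefore not like for like. When any 1 mutant array was left out, 76 to 98 members lay above 0, and the lowest count came without max2 replicate 1. The median was 0.10 without that array and 0.31 without max2 replicate 3. Averaged over the members, max2 arrays stood at 9.37, 9.29 and 8.89, max1 arrays at 9.15, 8.87 and 9.14, and max3 arrays at 8.90, 9.11 and 8.98, which overlap. In max1 against max3 66 members lay above 0, with a median of 0.08.

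AT1G12080 showed the widest differences between mutants among one-gene members. It read 12.42, 12.37 and 13.11 in max1, 10.52, 10.54 and 10.65 in max2, and 10.38, 11.40 and 11.29 in max3 arrays, against 11.86 to 12.27 in intact plants. The max1 arrays were above all intact arrays, and the max2 and max3 arrays below them. Against intact plants the max2 difference of -1.45 missed the threshold (limma, adjusted p = 0.0741). AT1G12080 was called lower in max2 in fits of only the groups compared, with array weights and with dim probe sets left out (limma, adjusted p = 0.0304, 0.0272 and 0.0401). The difference between max2 and the mean of the other two was -1.26 ± 0.36 and that between max1 and max3 1.61 ± 0.41, neither past the threshold (limma, adjusted p = 0.423 and 0.183). For tny, max2 read 8.28, 7.95 and 6.81 against 8.43 to 9.03 in max1 and max3 arrays, with the third max2 array the lowest, a difference of -0.96 ± 0.27 that missed the threshold (adjusted p = 0.430) and was -0.53 without that array (0.526). AT3G48970 read 7.36, 7.62 and 7.96 in max1 and 8.46, 8.82 and 8.49 in max3 arrays, which did not overlap, a difference of -0.94 ± 0.30 that missed it too (adjusted p = 0.430). With array weights AT1G12080 and AT3G48970 were called in max1 against max3 (limma, adjusted p = 0.0444 and 0.0285).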

How the data were processed

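The deposited values of 21 ATH1 arrays were used on their log2 scale as the authors gave them, without further scaling or filtering. RMA, GCRMA and R 3.2.2 are named, per the submitters' processing notes, without the role of each. Both methods quantile-normalize arrays, which sets aside any change shared by all transcripts. Depth does not apply to arrays, and 3 arrays a group limit the precision. The members and gene lists were chosen with earlier results of these data known, and families were assigned to members afterwards from general knowledge.

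The probe annotation named 1 gene for 13513 of 22746 probe sets, several for 503 and none for 8730. RefSeq (TAIR10.1), used for names and chromosomes, held 13436 of those with 1 gene. Group means gave the members. A model of group means over all 21 arrays was fitted in limma 3.58.1 (R 4.3.3), with 14 residual degrees of freedom and 1.03 from the prior. Adjustment by Benjamini-Hochberg ran over all probe sets at a threshold of 0.05. In this main fit p-values measure the spread between 3 pooled samples a group, estimated jointly over all 7 groups. Those include the decapitated and NPA groups, in which the rule asked members to be low. The procedure was tested on simulated data with independent noise and no effect of replicate number, unlike these arrays. It recovered 69% to 84% of added differences of size 1 and 89% to 96% of those of size 2, with 10 to 13 false calls. A difference of 1 can thus be missed. The differences were added to probe sets drawn from all 22746, whose median SD in intact plants was 0.139, against 0.230 for members. Recovery among the members was not measured. Full values are given for the 15 one-gene members with the largest mean loss, up to 6 members with the smallest adjusted p in each mutant, and the values at each limit. Alike probe sets were the 5 with the highest Pearson r to the members' mean. Sequences were not used here. Values of 2 one-gene members are not reported here.

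Per the labels, treatments of 1 replicate number were done simultaneously, so numbers pair the samples. Residuals of arrays that share a number had a median correlation of 0.361 (0.427 in number 1, 0.127 in number 2, 0.401 in number 3), against -0.123 for arrays that do not. The number entered as a block in an alternative. The other alternatives were a fit of only the groups compared, array medians subtracted, a second quantile normalization, dim probe sets left out, array weights, a trend with robust estimation, a change of at least 1, each array left out, and other limits in the rule.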

Additional observations from a re-analysis of the deposited data

How the results depend on the processing

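The rule gave 211 members with limits of 2.5, 59 with 3.5, 52 with IAA within 0.5 of intact, and 98 to 132 when 1 wild-type array was left out. Array scaling gave 99 (97 shared) with medians subtracted and 103 (102 shared) after a second quantile normalization. Counts of members higher than intact in max1, max2 and max3 were 8, 14 and 4. They were 2, 2 and 0 in fits of only the groups compared, 18, 22 and 14 with array weights, 12, 25 and 7 without probe sets below 3.5 in every array, and 11, 19 and 7 with the replicate block. Counts of members lower, 0 in each, were 1, 1 and 2 with only the groups compared, 3, 4 and 2 with array weights, 3, 4 and 0 without dim probe sets, 2, 2 and 0 with medians subtracted, 2, 1 and 0 with a trend and robust estimation, and 2, 2 and 1 with the replicate block. Leaving out 1 array gave 4 to 8, 7 to 17 and 1 to 4 members higher and 0 to 1, 0 to 1 and 0 to 0 lower. Array weights called 1 member higher and 1 lower in max1 against max3, and no other alternative called any member between mutants. Of the 26 called pairs of member and mutant, 24 were lost with only the groups compared, 3 after quantile normalization, 2 with medians subtracted, 1 with the trend, and 0 with the replicate block, array weights or dim probe sets left out. Leaving out intact replicates 1, 2 and 3 lost 11, 14 and 8. None reversed. AT4G20230 in max1 kept its call in 13 of 13 alternatives. The replicate block left both comparisons between mutants without a call. Fits of only the groups compared have fewer arrays, and the cause of the other changes was not tested. Differences of members near background are bounded by it, since 27 and 26 members were below 3.5 in every decapitated or NPA array. Promoter motif and protein comparisons were not run.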
